A study of Mus musculus with 18 samples.

Results

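The comparison described here set mouse neurosphere cultures lacking Pcdh19 against wild type cultures at day 4 of differentiation. It rests on 6 of the 18 arrays of the series, 3 from knockout and 3 from wild type cultures, chosen by the genotype and differentiation state in their labels. The other arrays hold the same 2 genotypes at day 0, before differentiation, and a mixture of knockout and wild type cells, called mosaic, at both days, with 3 arrays in each of the 6 groups. The cultures carry no other allele and no agent that the labels name. The sources used here do not give the strain, the age of the animals, the part of Pcdh19 that was deleted or the number of animals or lines behind the cultures. The design text calls the replicates technical, so the p-values measure only the spread between such repeats. Every value is a normalised array signal on a log2 scale, with base 2 read from the range of the values, so that a difference of 1 is a doubling, and a difference is always knockout minus wild type unless stated otherwise.

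Neurospheres are floating clusters of neural stem and progenitor cells that, when growth conditions are changed, give rise to neurons, astrocytes and oligodendrocytes. Pcdh19 lies on the X chromosome and encodes a nonclustered protocadherin, a calcium-dependent adhesion protein that cells use to recognise neighbours carrying the same protein and that works together with N-cadherin. Its cytoplasmic tail is known to bind the WAVE complex, which drives actin branching, and to associate with subunits of the GABA-A receptor. In people, loss of the gene in some but not all cells causes a childhood epilepsy. The comparison asks how a uniform loss of the gene, with no mixture of cells, is read in the transcriptome after 4 days of differentiation.

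The targeted gene was measured first. Pcdh19 signal was 6.90, 6.98 and 6.81 on the wild type arrays at day 4. It was 5.70, 5.53 and 5.86 on the knockout arrays. Every knockout array lay below every wild type array. The difference was -1.20 ± 0.26 (SE, n = 3 and 3), with a 95% interval of -1.758 to -0.642, which leaves 43.5% of the wild type signal, or a 2.3-fold lower signal. It was the lowest difference among the 19016 genes tested.

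By limma's moderated test with Benjamini-Hochberg adjustment over all genes, the adjusted p of Pcdh19 was 0.195, above the threshold of 0.05. The 3 mosaic arrays at day 4 were at 6.54, 7.09 and 5.52, spanning both genotypes, and the fit shares 1 estimate of spread over all 6 groups. When the mosaic groups were left out, the SE was 0.11 and the adjusted p 0.00217. An exact two-sided permutation test of the 6 values gave p = 0.1, the smallest that 20 splits of 3 against 3 allow. The residual signal of knockout arrays lay at most at the 48th percentile of the 19016 genes tested. The sources used here do not say whether the single probe set of the gene lies in its deleted part, so its signal checks the labels only if it does.

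At day 0 the wild type arrays were at 6.85, 6.83 and 6.66 and the knockout arrays at 5.39, 5.46 and 5.68, a difference of -1.27. The difference between the 2 days was 0.07 ± 0.37 (SE), with an adjusted p of 0.971. Knockout arrays lay below wild type arrays on both days.

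**Figure D1:**
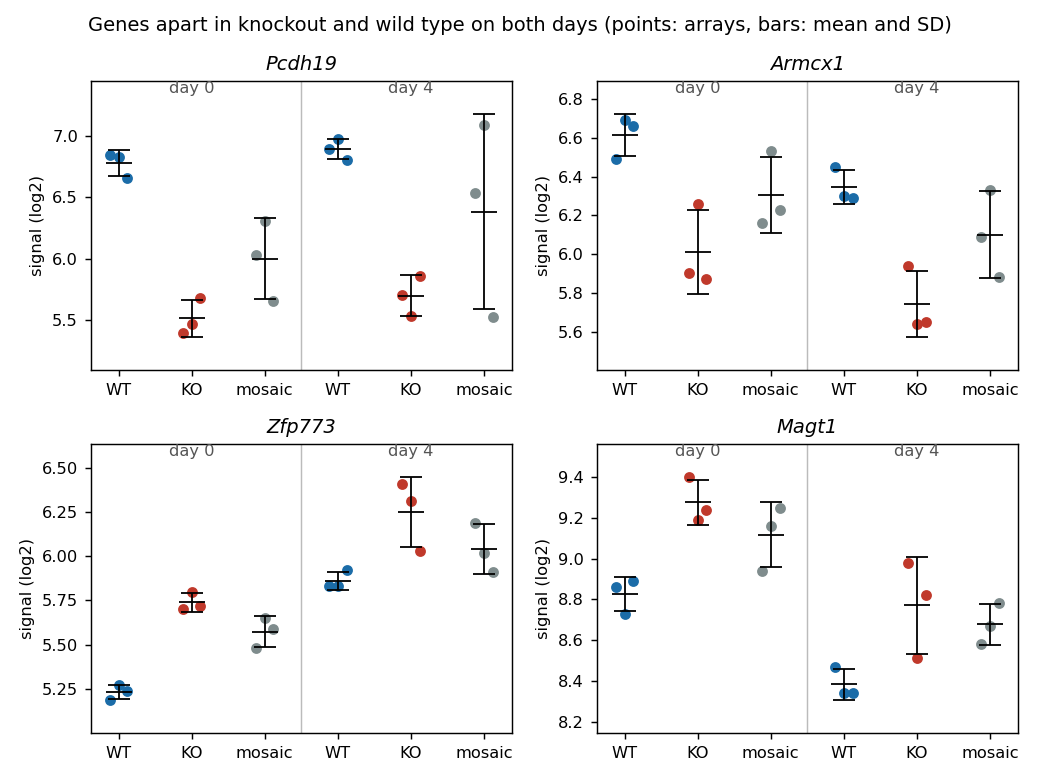
Normalised signal (log2, vertical axes) of Pcdh19, Armcx1, Zfp773 and Magt1 on all 18 arrays, by group: wild type (WT, blue), knockout (KO, red) and mosaic (grey) at day 0 and day 4. Points are arrays, and bars give the mean and SD of 3. Knockout and wild type arrays do not overlap on either day in any panel, while the mosaic arrays of Pcdh19 at day 4 run from 5.52 to 7.09.

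The labels describe the cultures as female, which the arrays did not match. Xist, the RNA that coats the inactive X chromosome, lay between 2.85 and 3.98 on the 6 arrays and below the array median on all 18. The Y-linked genes Kdm5d (6.85 to 7.76), Uty (6.96 to 7.47) and Eif2s3y (8.24 to 8.77) lay above the median on all 18 arrays. This held in both genotypes. Among these Y-linked genes, Kdm5d was higher by 0.45 in knockout cultures, with arrays that did not overlap and an adjusted p of 0.239, whereas the differences of Uty (-0.06) and Eif2s3y (0.14) came from overlapping arrays.

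No gene passed an adjusted p of 0.05 between knockout and wild type cultures at day 4 (0 of 19016 genes, 0%). The smallest adjusted p values were 0.0619 for the predicted gene Gm21370, at -0.67, and 0.0649 for Kcnmb3, at -0.82. Gm21370 passed under quantile normalisation, cyclic loess and a filter at the 50th percentile, and Kcnmb3 under that filter. Leaving out wild type replicate 3 let 5 genes pass (Dppa2, Gm21370, Krt33a, Tagln and Tmem221), and leaving out knockout replicate 2 let 4 pass (4833420G17Rik, Gm19461, Kcnmb3 and Lrrc17). At an unadjusted p under 0.05, limma gave 2411 genes, 1017 higher in knockout (5.35% of the genes tested) and 1394 lower (7.33%). Scaling every array to a common median moved this split to 1952 higher and 820 lower, and quantile normalisation gave 623 higher. The arrays of the genotypes did not overlap for 1627 genes higher in knockout (8.56%) and for 1573 genes lower (8.27%).

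The differences were small. The median size over all genes was 0.117, and 170 genes differed by 1.5-fold or more, 70 upward and 100 downward. In 112 of these the arrays did not overlap. A difference of 2-fold or more was measured for 9 genes. The 95% interval of the difference lay within 2-fold for 18753 genes (98.6%) and within 1.5-fold for 15645 genes (82.3%), with a median half-width of 0.267. These intervals cover the spread between technical replicates and do not bound the difference over independent cultures or animals. Only 2 genes had a difference larger in size than that of Pcdh19, Rps13 at 1.61, with overlapping arrays, and the small nucleolar RNA gene Snord13 at 1.56, whose arrays did not overlap.

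The sign of a gene's difference went with its signal level. With the genes divided by mean signal into 4 equal bins, the median of the dimmest bin was -0.129 and 73.9% of its genes were below 0. In the brightest bin the median was 0.062 and 22.4% were below 0. The same bins had medians of 0.027 and -0.016 at day 0. For mosaic against wild type cultures at day 4 they had medians of -0.129 and 0.083, from the same wild type arrays. Array replicate 1 of each genotype stood farthest apart in this respect, and the unadjusted calls came to 1125 (5.92%) with both left out, 1615 without the wild type array and 1437 without the knockout array. After cyclic loess, which removes differences that depend on signal level, the bins were formed again over the 19036 genes that passed the filter. The medians of the dimmest and brightest bins were then -0.028 and -0.006, and the unadjusted calls 1641. Under cyclic loess Pcdh19 differed by -1.21, Kcnmb3 by -0.72, Dlx6 by -0.50 and Col12a1 by 0.73, and all 24 of the leading genes described next kept their sign.

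**Figure D2:**
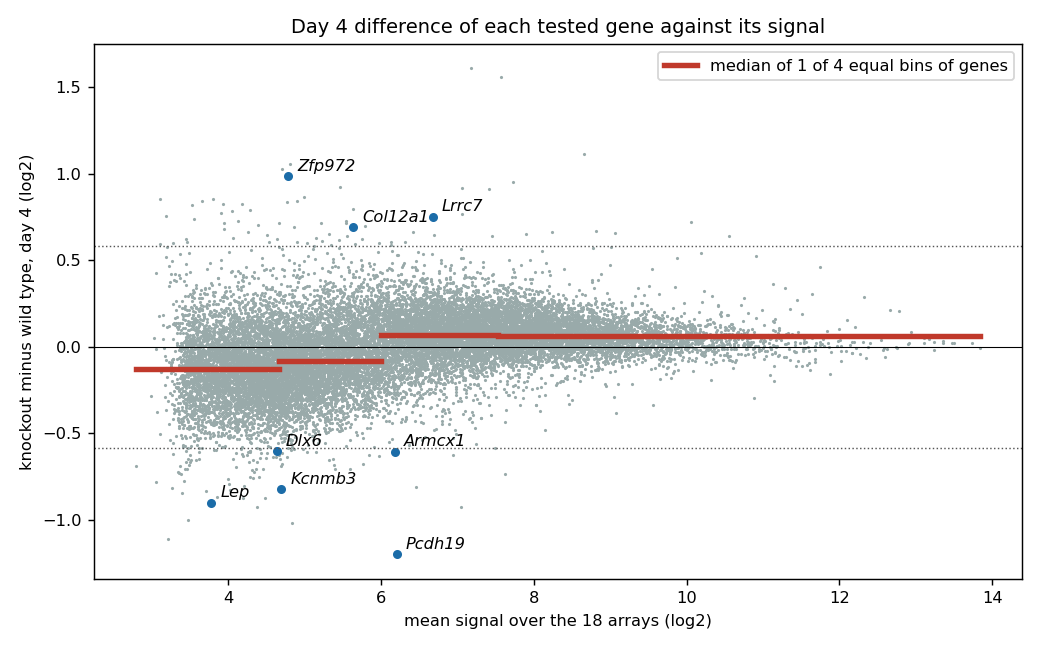
Day 4 difference (knockout minus wild type, log2, vertical axis) of each of the 19016 genes tested against its mean signal over the 18 arrays (log2, horizontal axis). Red lines are the medians of the 4 bins of genes, from -0.129 in the dimmest to 0.062 in the brightest, dotted lines mark 1.5-fold, and blue points are genes described in the text, with Pcdh19 lowest of all.

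The 12 named genes that led among those higher in knockout cultures, by the size of their unadjusted p among genes with arrays that did not overlap, differed by 0.31 to 0.98. Their adjusted p values were 0.154 to 0.204, so none passed. Col12a1, a collagen that decorates fibrils, was at 4.87, 4.82 and 5.10 in wild type and 5.67, 5.65 and 5.56 in knockout cultures, a difference of 0.69 ± 0.12 (SE). The knockout arrays of Col12a1 lay close together, above the highest wild type array. Lrrc7, which encodes the postsynaptic scaffold densin, was at 5.91, 6.05 and 5.87 against 6.98, 6.49 and 6.62, a difference of 0.75. Zfp972, a zinc finger gene, was at 3.50, 3.73 and 4.27 against 5.06, 4.60 and 4.79, a difference of 0.98. Its first wild type value lay below the 25th percentile of that array (3.639).

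The zinc finger genes Zfp93 and Zfp111 differed by 0.41 and 0.49. Haus1, a subunit of the augmin complex of the spindle, differed by 0.47, and Tubgcp5, of the gamma-tubulin complex, by 0.49. Tubgcp5 was at 6.30, 6.26 and 6.52 in wild type and 6.86, 6.98 and 6.70 in knockout cultures. The others were Bbs12 (0.47), a chaperonin-like protein needed to assemble the ciliary BBSome, Alg12 (0.41), a mannosyltransferase of N-glycan assembly, and Coq2 (0.37), of coenzyme Q synthesis. Cd99l2 (0.39), a surface adhesion protein, and Map3k1 (0.31), a kinase upstream of JNK and ERK, complete the set. Map3k1 had wild type arrays at 7.78, 7.83 and 7.80 and knockout arrays at 8.13, 8.16 and 8.05.

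The 12 named genes that led among those lower in knockout cultures differed by -0.90 to -0.45, with adjusted p values of 0.0649 to 0.193. All 12 had a mean signal below the median of the genes tested, where differences over the whole array lay below 0 more often than above. Kcnmb3, an auxiliary subunit of the calcium-activated BK potassium channel, was at 5.04, 5.13 and 5.11 in wild type and 4.10, 4.53 and 4.19 in knockout cultures. Dlx6, a homeobox factor of the GABAergic interneuron lineage, was at 5.07, 5.14 and 5.04 against 4.40, 4.58 and 4.45, a difference of -0.60 ± 0.10 (SE). In both genes the highest knockout array lay well below the lowest wild type array.

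Dpt, which encodes the matrix protein dermatopontin, differed by -0.87, from 4.97, 4.54 and 4.80 to 3.73, 4.03 and 3.95. Lep, the hormone leptin, differed by -0.90, Lrrc17 by -0.69 and Lrg1, a leucine-rich glycoprotein, by -0.56. Itih2, a hyaluronan-binding protein, differed by -0.45. The rest were Ifi35 (-0.65), an interferon-induced gene, the serine protease Prss43 (-0.75), the aromatic amino acid transporter Slc16a10 (-0.52), Mamstr (-0.51), a coactivator of MEF2 factors, and Ctag2 (-0.53).

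The mosaic cultures at day 4 share the wild type arrays of this comparison through their own difference from wild type, so the values are given side by side. Zfp972 differed from wild type by 1.33 in mosaic and 0.98 in knockout cultures, and Dlx6 by -0.38 and -0.60. No gene passed between mosaic and wild type cultures at day 4 (limma, 3026 at an unadjusted p under 0.05) or between mosaic and knockout cultures (1155).

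**Figure D3:**
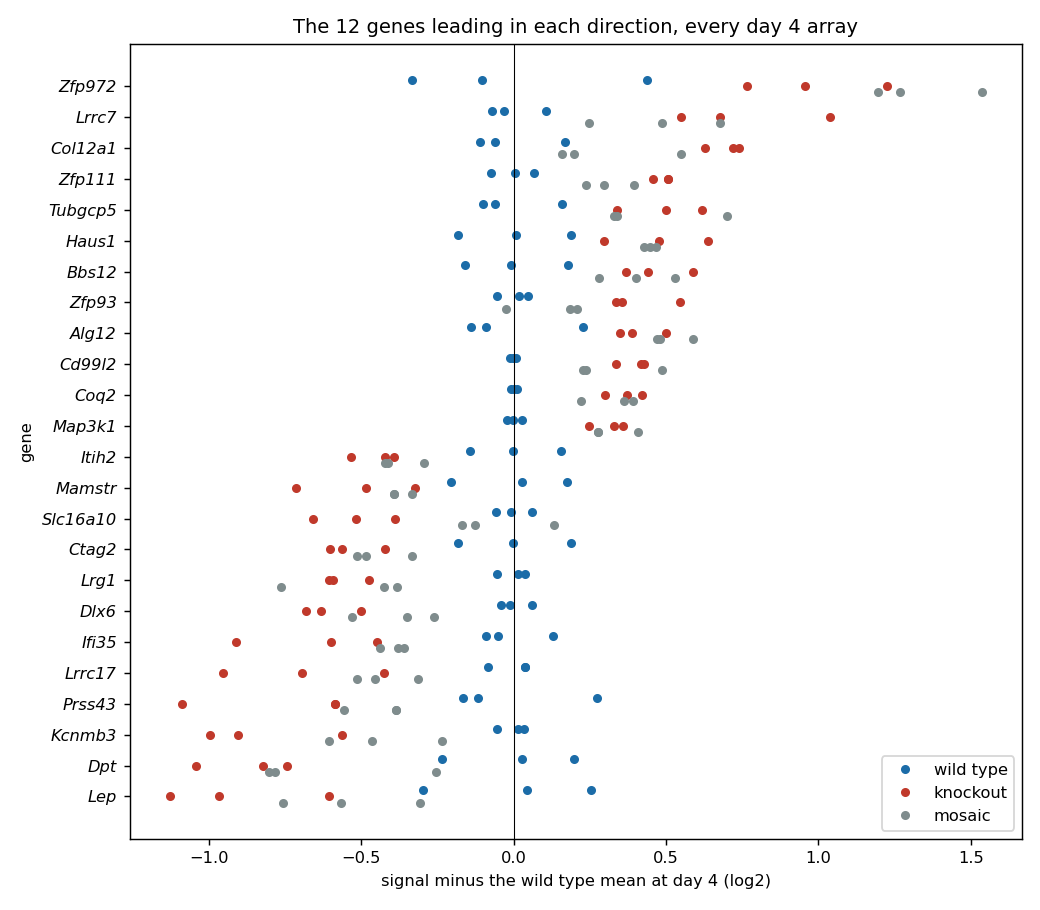
Signal of the 12 genes leading in each direction on the 9 arrays of day 4, as the difference from the wild type mean (log2, horizontal axis), with 1 row per gene. Blue, red and grey points are wild type, knockout and mosaic arrays. Blue and red points do not overlap in any row, which the choice of genes required.

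The gene lists that follow hold 591 genes tested in 37 lists of cell types, pathways and chromosomal neighbours. No member passed an adjusted p of 0.05. Each list is described by the number of members tested, those at an unadjusted p under 0.05, and its median difference, against 0.008 over all genes. For every list, the share over all genes at that threshold was 5.35% higher and 7.33% lower in knockout. In bulk cultures, fewer cells of a type and less RNA per cell cannot be told apart. Of the 37 medians, 18 kept their sign under quantile normalisation, the common array median and cyclic loess, and 12 kept it under all settings.

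Nonclustered protocadherins, the family of the deleted gene, were all tested (12 of 12), and 8 had a difference above 0. At an unadjusted p under 0.05, 3 were higher and 3 lower in knockout, Pcdh19 among the latter, against 5.35% and 7.33% of all genes. Pcdh18 was at 5.86, 5.82 and 5.55 in wild type and 6.49, 6.27 and 6.12 in knockout cultures, a difference of 0.55 (adjusted p 0.258). Pcdh15, an adhesion protein of sensory hair bundles, differed by 0.33 and Pcdh7 by 0.26. Their arrays did not overlap either. Pcdh20 was at 4.85, 5.07 and 4.87 against 4.42, 4.57 and 4.50, a difference of -0.43 (adjusted p 0.207), and Pcdh8 differed by -0.25, with overlapping arrays.

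Pcdh19 belongs to the delta-2 group with Pcdh8, Pcdh10, Pcdh17 and Pcdh18. Pcdh10 differed by 0.05 ± 0.08 (SE) and Pcdh17 by 0.01 ± 0.10, besides the values of Pcdh18 and Pcdh8 above. The other members lay between -0.13 (Pcdh1) and 0.16 (Pcdh11x), with Pcdh9 at 0.11 and Pcdh12 at 0.04, all from overlapping arrays. At day 0 the differences of Pcdh18 (0.10), Pcdh15 (-0.15), Pcdh7 (-0.09) and Pcdh20 (-0.13) were smaller in size.

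Classical cadherins and catenins had 16 members tested, 2 higher and 1 lower at the unadjusted threshold, and a median of 0.048 that turned to -0.01 under quantile normalisation and to -0.014 under cyclic loess. Cdh2, the N-cadherin that Pcdh19 partners, was at 10.73, 10.78 and 10.87 in wild type and 10.85, 10.83 and 10.76 in knockout cultures, a difference of 0.02 ± 0.08 (SE). Beta-catenin (Ctnnb1) differed by 0.05. Cdh13, an atypical cadherin without a cytoplasmic tail, differed by 0.22, alpha-catenin (Ctnna1) by 0.18 and E-cadherin (Cdh1) by -0.27. These 3 had arrays that did not overlap.

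The WAVE complex, which Pcdh19 binds, had 9 members tested, 1 at the unadjusted threshold and a median of 0.058, which was -0.003 under cyclic loess. Wasf1, its neuronal actin-nucleating subunit, was at 9.45, 9.58 and 9.53 in wild type and 9.68, 9.90 and 9.69 in knockout cultures, a difference of 0.24 ± 0.08 (SE, adjusted p 0.278). Nckap1 differed by 0.06 and Cyfip2 by -0.04. GABA-A receptor subunits had 9 members tested and 0 at the unadjusted threshold, with a median of 0.049 that turned to -0.065 without array replicate 1 of both genotypes. Gabra2 differed by 0.17 and Gabra3 by -0.02, both from overlapping arrays.

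General neuron markers, axon guidance genes and synapse genes had medians above 0. Most of their members (21 of 23, 22 of 25 and 21 of 22) lay above the array median on all 6 arrays. Brighter genes lay higher over the whole array, with a median of 0.062 in the brightest bin and 0.067 in the next. In those bins 22.4% and 31.2% of genes were below 0. Under cyclic loess the medians of the lists were 0.114, 0.107 and 0.048. Of 23 neuron markers, 20 had a difference above 0, with a median of 0.158 that ranged from 0.107 under quantile normalisation to 0.214 with a common array median. It was 0.037 without array replicate 1 of both genotypes and also without knockout replicate 1 alone. At the unadjusted threshold there was 1 member, Nsg1, an endosomal protein of neurons, at 0.18. Tubb3, the neuronal tubulin, was at 8.57, 8.70 and 8.70 in wild type and 9.10, 8.72 and 8.55 in knockout cultures, a difference of 0.13 carried by 1 knockout array. Map2 differed by 0.14 and Rbfox3 by 0.19, the latter from arrays that did not overlap. The mean signal of the tested neuron markers ranged from 7.70 to 7.72 on wild type arrays and from 7.61 to 8.10 on knockout arrays.

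Axon guidance genes had 25 members tested, of which 21 had a difference above 0 and 8 had knockout arrays that all lay above wild type, against 0 that lay below (8.56% and 8.27% of all genes). At an unadjusted p under 0.05, 3 of the 25 were higher and 0 lower, against 5.35% and 7.33% of all genes. The median was 0.151 and stayed between 0.101 and 0.208 under all settings. Dcc, a netrin receptor, was at 8.20, 8.16 and 8.28 in wild type and 8.85, 8.86 and 8.25 in knockout cultures, a difference of 0.44 ± 0.15 (SE, adjusted p 0.276), with the third knockout array among the wild type values. Nrp2, a semaphorin receptor, was at 6.11, 6.01 and 5.90 against 6.62, 6.31 and 6.14, a difference of 0.35. Unc5d, another netrin receptor, was at 5.85, 5.88 and 6.04 against 6.25, 6.25 and 6.14, a difference of 0.29. Among the semaphorins, Sema3a differed by -0.24, Sema3c by 0.15 and Sema3d by 0.07, all from overlapping arrays.

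Of 22 synapse genes, 18 had a difference above 0, with a median of 0.085 (0.029 to 0.142 over all settings) and 2 at the unadjusted threshold. Grin2b, a subunit of the NMDA receptor, was at 5.85, 5.85 and 5.48 in wild type and 6.10, 6.11 and 6.0 in knockout cultures, a difference of 0.34. Nlgn1, a postsynaptic adhesion protein, differed by 0.23, with overlapping arrays. Synapsin genes Syn1 (0.11) and Syn2 (0.07) and synaptophysin (Syp, 0.08) differed by little, with overlapping arrays.

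GABAergic interneuron markers had a median of -0.094 over 15 members, between -0.14 and -0.004 over the settings, with 2 lower at the unadjusted threshold. Mosaic cultures had a median of -0.193 against wild type. Calb1, which encodes calbindin, was at 3.89, 3.71 and 3.52 in wild type and 3.37, 3.34 and 3.35 in knockout cultures, a difference of -0.35, and Vip differed by -0.38 with overlapping arrays. Calb1 was near the floor, with every knockout value below the 25th percentile of its array (3.584, 3.589 and 3.622). The third wild type value was also below that of its array (3.644). The enzymes of GABA synthesis, Gad1 and Gad2, differed by -0.19 and 0.00, and the transporter Slc32a1 by -0.16, each with overlapping arrays. Glutamatergic markers had 10 members tested and a median of 0.031, which turned to -0.027 without knockout replicate 1. Emx1, a cortical homeobox gene, differed by -0.30.

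Intermediate progenitor and neuroblast markers had a median of 0.016 over 19 members, which was 0.000 under quantile normalisation and between -0.031 and 0.131 over all settings. Besides Dlx6, Nhlh1, a basic helix-loop-helix factor of newborn neurons, was at 4.70, 4.50 and 4.67 in wild type and 3.78, 3.76 and 3.94 in knockout cultures. Its difference was -0.79 ± 0.18 (SE, adjusted p 0.195), and mosaic arrays lay at 4.34, 3.79 and 4.24. Cd24a, a surface protein of immature neurons, differed by 0.32 in the opposite direction, and Dcx, the doublecortin of migrating neurons, by 0.17 ± 0.20 (SE).

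Neural stem cell markers had 17 members tested, 0 at the unadjusted threshold and a median of 0.029, which was -0.013 under quantile normalisation. Sox2 was at 10.73, 10.73 and 10.74 in wild type and 10.91, 10.88 and 10.71 in knockout cultures, with overlapping arrays. Nes, the progenitor intermediate filament, differed by 0.02 ± 0.17 (SE) and Pax6 by -0.04 ± 0.12. The largest difference of any tested member was 0.16.

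Astrocyte markers had a median of -0.018 over 22 members, which turned to 0.039 with a common array median, and 1 at the unadjusted threshold, Cd44 (0.32), a hyaluronan receptor. Gfap, the glial intermediate filament, was at 6.60, 7.07 and 6.59 in wild type and 6.57, 6.96 and 7.17 in knockout cultures. Aqp4 differed by -0.04 and Aldh1l1 by -0.09. Oligodendrocyte progenitor markers had a median of 0.037 over 17 members, which turned to -0.035 under quantile normalisation. Pdgfra differed by 0.05, Olig1 by -0.02 and Cspg4 by 0.04, while Cacng4, an AMPA receptor auxiliary subunit, differed by 0.23.

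Oligodendrocyte markers had mostly negative differences. Of 18 members 16 had a difference below 0, the median was -0.178, and 2 were lower at the unadjusted threshold. Mal, a myelin membrane protein, was at 9.21, 9.01 and 8.57 in wild type and 8.23, 8.19 and 8.92 in knockout cultures, a difference of -0.48 ± 0.21 (SE, adjusted p 0.363). The third array of each genotype lay within the other's range. Tmem125 differed by -0.40, with overlapping arrays. Mbp, the myelin basic protein, differed by 0.05 and Mag by -0.26 ± 0.35 (SE). The list's median stayed below 0 under the 3 other scalings but was 0.012 without array replicate 1 of both genotypes, and mosaic cultures had a median of 0.146 against wild type.

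Lists of the cell cycle had medians below 0. Mitosis genes had a median of -0.148 over 19 members, 15 of them below 0, which was 0.009 without knockout replicate 1. At the unadjusted threshold there was 1, Cenpe, a kinetochore motor, at 5.85, 6.09 and 5.94 in wild type and 5.49, 5.54 and 5.68 in knockout cultures. Mki67, the proliferation marker, differed by -0.29 ± 0.21 (SE), Top2a by -0.28 and Aspm by -0.04. DNA replication genes had a median of -0.085 over 19 members (Mcm2 -0.10, Mcm3 -0.20, Mcm4 0.13), which was -0.005 without knockout replicate 1 and -0.151 under quantile normalisation. G1 regulators had one of -0.103 over 13, which was -0.052 without knockout replicate 1. Ccnd1 differed by -0.22 and Ccnd2 by -0.19, both within overlapping arrays.

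The mosaic medians against wild type were above 0 for mitosis (0.292) and DNA replication (0.084). In wild type cultures these lists had medians of -2.364 and -0.593 between day 0 and day 4.

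Targets of p53 had 16 members tested, 3 lower at the unadjusted threshold (7.33% of all genes were) and a median of -0.107, between -0.173 and -0.05 over all settings. Cdkn1a, the cell cycle inhibitor p21, was at 8.56, 8.35 and 8.42 in wild type and 7.86, 8.20 and 8.11 in knockout cultures, a difference of -0.38 ± 0.15 (SE, adjusted p 0.323). Bbc3, a pro-apoptotic gene, differed by -0.35 and Phlda3 by -0.28, while Mdm2 differed by 0.07.

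Signalling lists had medians between -0.042 and 0.061 at day 4, and each of them changed sign under another scaling. In the Notch pathway, Jag1, a ligand, was at 5.60, 6.34 and 6.17 in wild type and 6.79, 6.58 and 6.37 in knockout cultures, a difference of 0.55 ± 0.18 (SE, adjusted p 0.264). Dll3, a ligand-like inhibitor, differed by -0.26, and the receptors Notch1, Notch2 and Notch3 by 0.11, 0.12 and 0.05. Among Wnt genes, the target Axin2 differed by 0.27, the target Sp5 by -0.40 and the receptor Fzd1 by -0.24. Skil, an inhibitor of TGF-beta signalling, was at 6.57, 6.60 and 6.57 against 7.13, 6.80 and 6.81, a difference of 0.33. Spry1, a feedback inhibitor of receptor kinases, differed by 0.36 and the immediate early gene Egr3 by 0.43, the latter with overlapping arrays.

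Extracellular matrix genes had 28 members tested, with 1 higher and 4 lower at the unadjusted threshold, against 5.35% and 7.33% of all genes. Their median of -0.025 turned to 0.032 with a common array median. The fibrillar collagen gene Col1a2 was at 5.44, 5.41 and 5.22 in wild type and 4.86, 4.96 and 5.09 in knockout cultures, a difference of -0.39 ± 0.10 (SE, adjusted p 0.211). The collagen genes Col3a1 and Col1a1 differed by -0.35 and -0.27, the laminin Lama2 by -0.30 and Thbs4 by -0.45. Thbs1, a thrombospondin that promotes synapse formation, was at 5.90, 5.95 and 6.20 against 6.49, 6.38 and 6.56, a difference of 0.46, and fibronectin (Fn1) differed by 0.54 ± 0.26 (SE).

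The contractile actin list had a median of -0.007 over 14 members, with either sign over the settings. Tagln, a smooth muscle actin-binding protein, was at 5.21, 5.04 and 4.56 in wild type and 4.33, 4.45 and 4.39 in knockout cultures, a difference of -0.55 (adjusted p 0.207). Flna, an actin cross-linker, differed by 0.25 and Vcl by 0.25, in the opposite direction.

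Markers of cell types that a neurosphere may hold in small numbers also had medians below 0. Pericyte and fibroblast markers had 3 of 11 members lower at the unadjusted threshold, which 7.33% of all genes were, and a median of -0.134 (mean signal 5.92 to 6.0 on wild type and 5.72 to 5.88 on knockout arrays). That list includes Col1a1, Col1a2 and Col3a1. Endothelial markers had a median of -0.219 over 9 members (4.91 to 5.03 against 4.64 to 4.91), ependymal markers -0.171 over 10 (4.77 to 4.96 against 4.64 to 4.76) and microglial markers -0.063 over 11 (4.84 to 4.98 against 4.79 to 4.88). At the unadjusted threshold 4 of 10 ependymal, 1 of 9 endothelial and 1 of 11 microglial markers were lower and 0 higher. The 4 ependymal genes were Tekt1 (-0.41), a protein of ciliary microtubules, Tmem212 (-0.36), the axonemal dynein Dnah11 (-0.27) and Ccdc153 (-0.24). All 4 medians stayed below 0 under all settings. They were not particular to knockout, since mosaic cultures also had medians below 0 against the same wild type arrays. These were -0.225 for pericyte and fibroblast, -0.181 for endothelial, -0.117 for ependymal and -0.112 for microglial markers. Most members of the last 3 lists were dim, with 3 of 9 endothelial, 2 of 10 ependymal and 3 of 11 microglial markers above the array median on all 6 arrays. Dimmer genes lay lower over the whole array, with a median of -0.129 in the dimmest bin. Under cyclic loess the medians were -0.136 for endothelial, -0.093 for ependymal, -0.018 for microglial and -0.099 for pericyte and fibroblast markers.

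Over the full lists, 8 of 9 endothelial, 8 of 10 ependymal, 8 of 11 microglial and 7 of 11 pericyte and fibroblast markers were below 0. Some of these markers gave small differences of either sign, with overlapping arrays. Examples were Pecam1 (-0.12) and Cdh5 (0.06) of endothelium and Foxj1 (-0.05) of cilia-bearing ependyma. Others were Aif1 (0.09) and Cx3cr1 (-0.06) of microglia and Pdgfrb (0.10) of pericytes. The pericyte channel gene Kcnj8 was at 4.30, 4.52 and 4.31 in wild type and 3.74, 3.93 and 4.01 in knockout cultures, a difference of -0.49. Tyrobp, a microglial signalling adaptor, differed by -0.37.

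**Figure D4:**
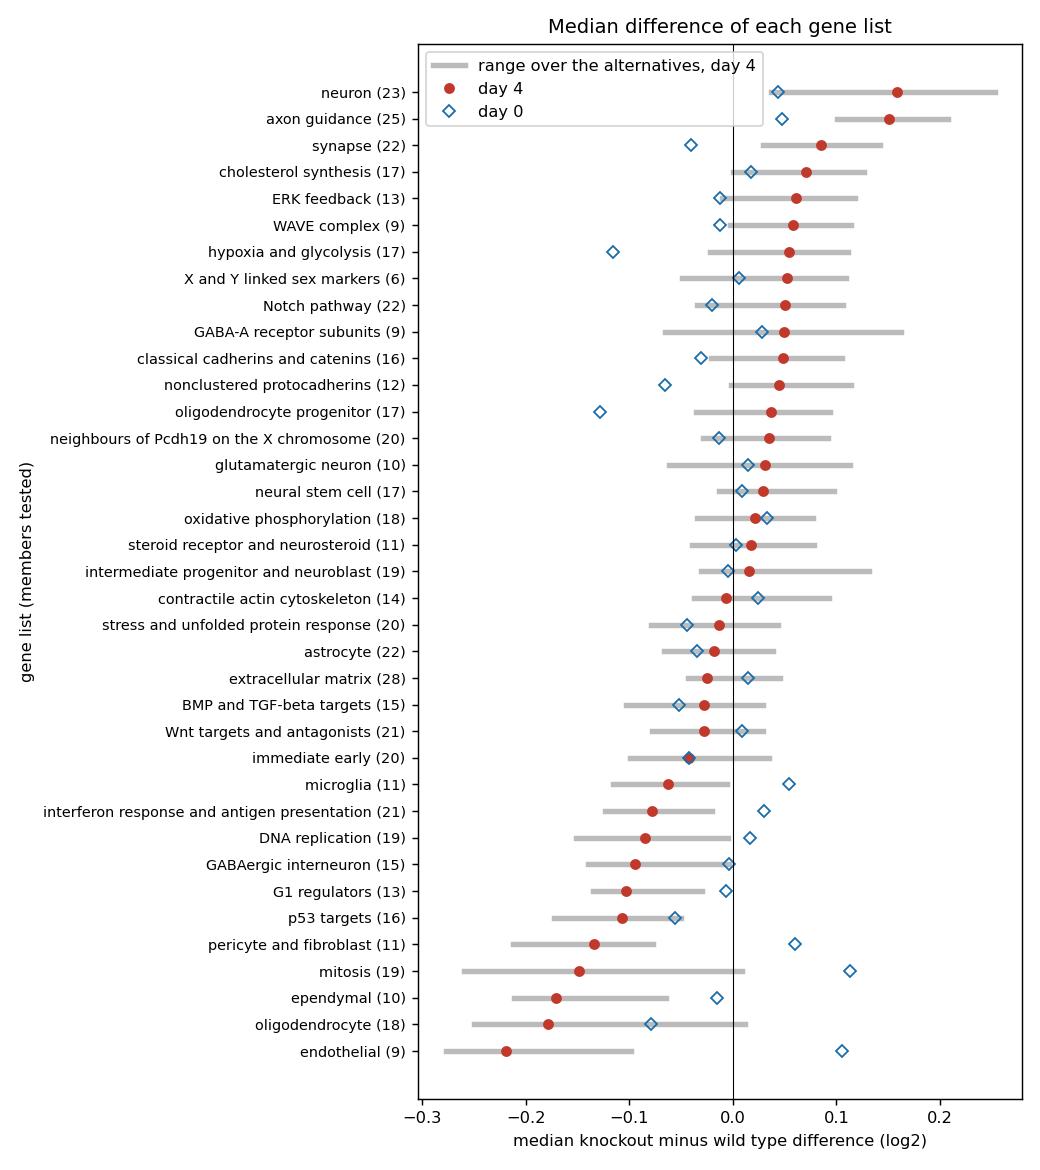
Median difference (knockout minus wild type, log2, horizontal axis) of each of the 37 gene lists, with the number of members tested in brackets. Red points are day 4, open blue diamonds day 0, and grey bars the range of the day 4 median over the alternative settings. Neuron and axon guidance lists stand highest at 0.158 and 0.151, the endothelial list lowest at -0.219, and many bars cross 0.

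Lists of stress and metabolism lay near 0. Stress genes had a median of -0.013 over 20 members, with the sign depending on the scaling. Hspa1b, an inducible chaperone, was at 5.16, 5.99 and 5.62 in wild type and 4.24, 4.63 and 5.13 in knockout cultures, a difference of -0.92 ± 0.39 (SE, adjusted p 0.341), while its neighbour and near copy Hspa1a differed by -0.04. The near-identical sequence of these 2 genes makes the split of their signal uncertain. Trib3 differed by -0.47. Cholesterol synthesis genes had a median of 0.071 over 17 members, which was 0 to the third decimal under cyclic loess, with 0 at the unadjusted threshold, and mosaic cultures had a median of 0.415 against wild type. Oxidative phosphorylation (0.021) and hypoxia and glycolysis (0.054) had medians whose sign depended on the scaling.

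Interferon response and antigen presentation genes had a median of -0.078 over 21 members, below 0 under all settings, with 2 higher (Isg15 at 0.34, H2-K1 at 0.28) and 2 lower (Psmb8 at -0.37, Ddx58 at -0.29) at the unadjusted threshold. Steroid receptor and neurosteroid genes had a median of 0.018 over 11 members, which turned to -0.017 without wild type replicate 1. Estrogen receptor genes Esr1 and Esr2 differed by -0.10 and -0.02, and Star, which carries cholesterol into mitochondria, by -0.33.

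The 20 tested genes nearest to Pcdh19 on the X chromosome, 10 on each side in the RefSeq order of GRCm38.p6, had a median of 0.035, which turned to -0.029 under quantile normalisation. At the unadjusted threshold 0 were higher and 2 lower, Nox1 (-0.43), an NADPH oxidase, and the histone gene H2ab2 (-0.40). Tspan6 differed by 0.01 and Cstf2 by 0.18. Over all genes the shares were 5.35% higher and 7.33% lower.

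The differences at day 4 were set beside those at day 0, which come from other arrays. No gene passed at day 0 (limma, 0 of 19016, with 686 or 3.61% at an unadjusted p under 0.05 and a smallest adjusted p of 0.564). Over all genes, 44.9% had the same sign on both days, and the differences had r = -0.114 across genes, which are not independent replicates. Among genes at an unadjusted p under 0.05 on both days, 35 had the same sign and 114 the opposite sign. Tested directly, the difference between the days passed for 0 genes (limma, 1809 or 9.51% unadjusted, smallest adjusted p 0.066).

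A set of 20 genes (0.105%) had arrays that did not overlap and an unadjusted p under 0.05 on both days in the same direction, 10 higher and 10 lower in knockout. They were picked after their values were seen, so their agreement between days is a description. On the X chromosome lay 4 of them (Pcdh19, Armcx1, Magt1 and Zf12), where 677 of the tested genes lie.

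Armcx1, which encodes an outer mitochondrial membrane protein that promotes mitochondrial transport in axons, was at 6.45, 6.30 and 6.29 in wild type and 5.94, 5.64 and 5.65 in knockout cultures. The difference was -0.61 ± 0.14 (SE) at day 4 and -0.60 at day 0, and the mosaic arrays at day 4 were at 6.09, 6.33 and 5.88. On the chromosome, 14 tested genes separate it from Pcdh19. Magt1, which encodes a subunit of the oligosaccharyltransferase linked to magnesium uptake, lies on the other side with 33 tested genes between. It was at 8.47, 8.34 and 8.34 in wild type and 8.98, 8.51 and 8.82 in knockout cultures, a difference of 0.39 at day 4 and 0.45 at day 0.

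Zfp773, an autosomal zinc finger gene, was at 5.83, 5.83 and 5.92 in wild type and 6.41, 6.31 and 6.03 in knockout cultures. The difference was 0.39 at day 4 and 0.50 at day 0. Gli1, the transcription factor and readout of Hedgehog signalling, was at 5.13, 5.02 and 4.93 against 4.54, 4.73 and 4.89, a difference of -0.31 at day 4 and -0.37 at day 0. Cttnbp2, a cortactin-binding protein of dendritic spines, was at 7.39, 7.48 and 7.61 against 8.06, 7.90 and 7.70, a difference of 0.39 at day 4 and 0.26 at day 0.

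The lysosomal enzyme gene Manba differed by 0.29 and 0.30, Tcof1, of ribosomal RNA synthesis, by 0.25 and 0.28, Tmem117 by 0.47 and 0.36, Rmdn2 by 0.35 and 0.30, and 4833420G17Rik by 0.95 and 0.53. Lower on both days were also Fgf15 (-0.30 and -0.27), a secreted growth factor, Upb1 (-0.24 and -0.43), of pyrimidine breakdown, Rps4l (-0.31 and -0.42), Gm5848 (-0.44 and -0.32), Zf12 (-0.37 and -0.37), Gm11681 (-0.20 and -0.20) and 4631405J19Rik (-0.30 and -0.24).

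Among the 10 genes higher on both days were 2 microRNA genes, shown with their mature sequences from RefSeq (GRCm38.p6), since the seed, bases 2 to 8 in capitals, sets which transcripts a microRNA can pair with. The first pair is encoded by Mir139 (plus strand, chr7:101475382-101475403 and chr7:101475418-101475439) and the second by Mir130a (minus strand, chr2:84741116-84741137 for the 3p arm and chr2:84741155-84741176 for the 5p arm).
mmu-miR-139-5p: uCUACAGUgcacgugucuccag
mmu-miR-139-3p: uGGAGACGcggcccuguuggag
mmu-miR-130a-3p: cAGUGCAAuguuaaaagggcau
mmu-miR-130a-5p: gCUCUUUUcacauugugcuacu
No 2 of these arms share a seed. Mir139 was at 7.11, 7.08 and 6.85 in wild type and 7.42, 7.75 and 7.26 in knockout cultures, a difference of 0.46 at day 4 and 0.44 at day 0. Mir130a was at 3.61, 3.65 and 3.56 against 3.82, 3.92 and 4.27, a difference of 0.40 at day 4 and 0.36 at day 0, on a probe set in the dimmest bin. The probe sets carry the gene symbol only, so the values are not the levels of either mature arm.

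Averaging both days in the same fit gave 0 genes past an adjusted p of 0.05 (limma, 1151 at an unadjusted p under 0.05). The lowest adjusted p values were 0.0642 for Pcdh19 and Zfp773 and 0.0696 for Armcx1, with mean differences of -1.23, 0.45 and -0.60. This contrast was added after seeing the 2 days' values. Under quantile normalisation, the 50th percentile filter, array weights and cyclic loess, these 3 genes passed, and no other gene did. They did not pass together under every setting. With a common array median only Pcdh19 and Zfp773 passed, and with a trend and robust variance only Armcx1. When the mosaic groups were left out, only Pcdh19 passed. Without knockout replicate 2 the gene that passed was 4833420G17Rik, and without knockout replicate 3 it was Zfp773.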

How the data were processed

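Total RNA of 18 samples was hybridised, biotin-labelled, to Affymetrix mouse gene arrays, 3 per group. The deposited table holds normalised values for 41345 probe sets, from 0.722 to 13.97, taken as log2 from that range. The authors' normalisation method and the genome build are not stated per the labels, and 0 columns fell outside the samples. The platform annotation gave 23521 probe sets with 1 gene symbol, 1814 with several and 16010 with none. Symbols were updated through Entrez identifiers for 23328 probe sets in the RefSeq table of GRCm38.p6. The probe set of highest mean stood for each of 22180 genes, and 19016 above the 25th array percentile on at least 3 arrays were tested.

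Groups came from the titles. All 6 groups were fitted together with limma 3.58.1 (lmFit, eBayes) in R 4.3.3, with 12 residual and 4.36 prior degrees of freedom. P-values were adjusted by Benjamini-Hochberg over all 19016 genes, with calls at 0.05. SEs are limma's moderated ones. The number of arrays limits the precision. The fit was checked on simulated data.

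Named genes were Pcdh19, the 12 genes per direction of smallest unadjusted p among those with arrays that did not overlap (called genes first), and the first 3 members of each list. The choice of 12 left out predicted, clone-named, olfactory, vomeronasal and small RNA genes and all symbols starting with Rn. All tested protocadherins and sex-linked markers and the neighbours of Pcdh19 were also eligible. Other list members were named after their values were seen because their unadjusted p was under 0.05, as were the genes apart on both days. The members and lists were chosen with earlier results of these data known. Same-numbered knockout and wild type arrays at day 4 correlated at -0.146, -0.015 and -0.083 after removing group means, which gave no sign of pairing. Such a correlation cannot show whether same-numbered arrays shared a preparation. Alternatives covered scaling, filter, probe set choice, variance model, samples and left-out arrays. Xist had a value but did not pass the filter.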

Additional observations from a re-analysis of the deposited data

Results flagged for a closer look

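Among the genes named in the report, 4 had knockout arrays that all lay below the wild type arrays at day 4 and all lay above them at day 0. Over all 19016 genes tested, arrays did not overlap on both days in opposite directions, either way round, for 212. They did so in the same direction for 106. Most of the named genes were chosen by their day 4 values. The day 4 minus day 0 change of the knockout effect was -0.95 for the predicted gene Gm21370, -0.84 for Dlx6, -0.74 for Lrg1 and -0.67 for Col1a2 (log2). By limma's test of that difference the adjusted p was 0.066 for Gm21370 and 0.233 for each of the others, so none passed. Gm21370 differed by 0.27 at day 0 and -0.67 at day 4, Dlx6 by 0.23 and -0.60, Lrg1 by 0.18 and -0.56, and Col1a2 by 0.29 and -0.39. In wild type cultures all 4 rose between the days, by 0.57, 0.66, 0.72 and 0.54 in the same order, with adjusted p values of 0.000277, 0.000154, 8.33e-05 and 0.000592. In knockout cultures Gm21370 fell by 0.38 (adjusted p 0.00806), and the changes of the other 3 were -0.18, -0.02 and -0.13, with adjusted p values of 0.236, 0.932 and 0.395. The wild type arrays enter both the differentiation and the genotype values, so these are not independent of each other. The 4 genes were picked because wild type lay below knockout at day 0 and above it at day 4. A rise in wild type relative to knockout was thus fixed by the choice, and the changes between the days are a description only.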

How the results depend on the processing

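Under the alternatives, the difference of Pcdh19 lay between -1.28 and -1.12, with adjusted p values of 0.00217 to 1, and passed only without the mosaic groups (-1.2). The count of genes past the threshold at day 4, 0 as reported, was 1 under quantile normalisation, 2 with the 50th percentile filter, 1 without the mosaic groups and 1 under cyclic loess, and ranged from 0 to 5 when single arrays were left out. The same count at day 0 was 1 without the mosaic groups. The count for the difference between days was 1 under quantile normalisation, 1 with the 50th percentile filter and 1 under cyclic loess, Gm21370 each time. The mean of both days gave 3 genes under quantile normalisation, 2 with a common array median, 3 with the 50th percentile filter, 1 with a trend and robust variance, 3 with array weights, 1 without the mosaic groups and 3 under cyclic loess, and 0 to 1 with single arrays left out. List members other than Pcdh19 past the threshold at day 4 ranged from 0 to 1, the 1 being Tagln without wild type replicate 3.

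Genes higher in knockout at an unadjusted p under 0.05 numbered 623 under quantile normalisation, 1952 with a common array median and 442 without array replicate 1 of both genotypes, and from 570 to 1291 with single arrays left out. Genes lower numbered 820 with a common array median, 723 with the 50th percentile filter, 831 under cyclic loess and 683 without replicate 1 of both genotypes, and from 867 to 1526 with single arrays left out. The cause was not tested. The filter tested fewer genes, 14178. The 24 leading genes gave 474 values, of which 0 changed sign and 3 came to pass (Kcnmb3 with that filter and without knockout replicate 2, Lrrc17 without knockout replicate 2). Of 666 list medians, 583 moved by less than their spread between arrays and 83 by more.

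With the replicate number as a block, Pcdh19 stayed at -1.2 with an adjusted p of 0.189, 0 genes passed and 2391 had an unadjusted p under 0.05. The correlations of same-numbered arrays gave no sign of pairing. Cyclic loess, the loss of both replicates 1 and the mean of both days were chosen after seeing the data.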
